A study of Mus musculus with 10 samples.

Results

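The Hox genes were followed in mouse embryonic fibroblasts (MEF) on Affymetrix mouse arrays. They were taken as every gene whose annotated symbol is Hoxa, Hoxb, Hoxc or Hoxd followed by a number, with 1 probe set per gene, the single-symbol one with the highest mean log2 signal over the 10 arrays. This gave 33 of 18193 genes, of which 14 were among the 10915 genes tested (the 60% with the highest mean signal) and 19 were dim, meaning below that limit, a mean log2 signal of 5.65. The rule uses symbols and mean signal, not differences between groups.

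The arrays compared a line labelled hsp70 (-/-), or knockout, with a line labelled (+/+), or rescue, here called KO-labelled and rescue-labelled. Preshocked cells were heated at 43 °C for 30 minutes, after 20 hours in 96-well plates, and harvested 3 hours later. Unheated control cells of the same line were harvested without heating. There were 3 preshocked (arrays 5, 11 and 13) and 3 unheated KO-labelled arrays (6, 12 and 14), and 2 preshocked (31 and 43) and 2 unheated rescue-labelled arrays (32 and 44), by the number in the labels. Each sample was made from the lysates of 144 wells. The labels do not say how the knockout or the rescue line was made, whether each is 1 clone, from which part of the embryo the cells came, or that arrays of 1 group came from different cultures, so p-values measure only the spread between these samples. With 1 line of each label, the label and everything else that separates the lines cannot be told apart.

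Hox genes encode homeodomain transcription factors and lie in 4 clusters, in which the order of the genes along the chromosome follows the order in which they are used from head to tail of the embryo. Genes with low paralog numbers, at the 3' end of a cluster, act at anterior levels, and those with high numbers, at the 5' end, at posterior levels and in the distal limb. Cultured fibroblasts keep a Hox pattern that reflects the place in the body from which they came, and Polycomb and Trithorax group proteins hold that pattern. Hox proteins bind DNA with Pbx and Meis cofactors.

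The promoters of 4 Hox genes are shown. Hoxa2 was called after preshock when arrays were paired, and Hoxb4, called in no comparison, is set beside it for its motif. Hoxa7 and Hoxa9, neighbours in cluster A, stood respectively below and above the other KO-labelled arrays in arrays 5 and 6, on the probe sets used. Each is the 250 bases before the annotated start, from RefSeq for GRCm38.p6, 5' to 3' on the gene's strand. Capitals mark TTCNNGAA or GAANNTTC, a pair of inverted half-sites of the heat shock element, where heat shock factors bind. Both motifs read the same on either strand.
Hoxa2, chr6:52164832-52165081, minus strand: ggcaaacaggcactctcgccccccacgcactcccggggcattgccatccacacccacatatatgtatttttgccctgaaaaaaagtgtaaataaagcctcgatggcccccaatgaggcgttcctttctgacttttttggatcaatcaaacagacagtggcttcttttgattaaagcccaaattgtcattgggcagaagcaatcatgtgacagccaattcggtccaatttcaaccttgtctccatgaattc
Hoxb4, chr11:96318017-96318266, plus strand: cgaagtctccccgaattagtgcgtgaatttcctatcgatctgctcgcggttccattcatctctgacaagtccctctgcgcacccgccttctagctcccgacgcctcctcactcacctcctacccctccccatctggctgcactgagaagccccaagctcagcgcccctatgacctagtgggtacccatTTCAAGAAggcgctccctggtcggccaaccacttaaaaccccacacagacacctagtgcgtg
Hoxa7, chr6:52218574-52218823, minus strand: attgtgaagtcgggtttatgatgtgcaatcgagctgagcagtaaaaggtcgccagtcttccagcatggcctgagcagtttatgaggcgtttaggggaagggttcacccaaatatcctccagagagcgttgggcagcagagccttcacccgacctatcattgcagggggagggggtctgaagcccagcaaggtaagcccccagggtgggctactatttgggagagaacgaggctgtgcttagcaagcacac
Hoxa9, chr6:52227371-52227620, minus strand: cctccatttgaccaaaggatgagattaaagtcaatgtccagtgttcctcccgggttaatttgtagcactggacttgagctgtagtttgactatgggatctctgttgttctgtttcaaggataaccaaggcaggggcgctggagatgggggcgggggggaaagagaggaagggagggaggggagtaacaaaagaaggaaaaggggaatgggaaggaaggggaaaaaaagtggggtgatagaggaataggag
Of 21 promoters of 19 Hox genes in the table, 1 held either motif, that of Hoxb4, where TTCNNGAA began at base 189. Over 32851 promoters of the same length, 6.69% held GAANNTTC, 7.17% TTCNNGAA and 12.8% either. A match is only a run of letters, and its lack in this window says nothing about the factor. The Hox promoters were rich in CpG dinucleotides, with a median of 13 in 250 bases against 6 over all promoters. Hoxb4 had 14, Hoxa7 had 7, Hoxa2 had 6 and Hoxa9 had 3. The table matched 8 of the 14 tested Hox genes, and Hoxb2, Hoxb3 and Hoxb9, described below, were not among them.

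Probe sets of Hspa1b, an inducible Hsp70 gene, rose after preshock in the line labelled knockout too. On its 3 probe sets the deposited intensity was between 63.2 and 477 in unheated and between 15502 and 39355 in preshocked KO-labelled arrays, and between 196 and 675 and between 24677 and 43329 in rescue-labelled arrays. Probes outside a deleted part would check nothing, and which part of Hspa1b the probes cover was not examined. The single probe set of Hspa1a was at 25.8 or lower in all arrays. Arrays 5 and 6, both KO-labelled, stood apart, with median deposited intensities of 100.4 and 107.0 against 50.7 to 73.7 in the other 8, and they lay apart on the first principal component (35.3% of the variance). Fibroblast markers were present, with Vim, a mesenchymal filament protein, at 15.02 to 15.28 log2 and 10 of 12 measured markers among the genes tested. Summed over that list the intensity was 81940 to 93016 in KO-labelled and 79648 to 91928 in rescue-labelled arrays. Of the lists of other cell types, 3 of 7 epithelial markers (Epcam, Krt8 and Krt5), 2 of 5 endothelial (Kdr and Esam), 3 of 6 macrophage and leukocyte (Cd68, Csf1r and Cd14), 2 of 5 muscle (Myod1 and Acta2), all 5 neural (Sox10, Gfap, Tubb3, Nes and Map2) and 1 of 5 pluripotent and germ markers (Sox2, at 10.70 to 11.87 log2) passed the signal filter. Ptprc (leukocyte), Pecam1 (endothelium), Cdh1 (epithelium), Myog (muscle), Pou5f1 and Nanog (pluripotent cells) were among the dim ones.

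Of the 14 members above the filter, 13 lie in clusters A and B. In cluster A (chromosome 6, 52162417 to 52260880 of GRCm38.p6) 8 of 9 measured members passed, Hoxa2, Hoxa3, Hoxa4, Hoxa5, Hoxa7, Hoxa9, Hoxa10 and Hoxa11, and Hoxa13 was dim. In cluster B (chromosome 11, 96194316 to 96368254) 5 of 9 passed, Hoxb2, Hoxb3, Hoxb4, Hoxb6 and Hoxb9, with Hoxb1, Hoxb5, Hoxb7 and Hoxb13 dim. Cluster C (chromosome 15, 102921131 to 103036856) had 1 of 7, Hoxc6, with Hoxc4, Hoxc5, Hoxc8, Hoxc9, Hoxc10 and Hoxc13 dim. In cluster D (chromosome 2, 74668225 to 74765142) all 8 measured members were dim, Hoxd1, Hoxd3 and Hoxd8 to Hoxd13. Dim describes the probe set's signal, which depends on the probes as well as the transcript, and does not say that the gene was silent. Probe sets with several symbols are no members, and the one shared by Hoxb8 and Hoxb7 was at 4.85 to 7.33 log2.

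**Figure D1:**
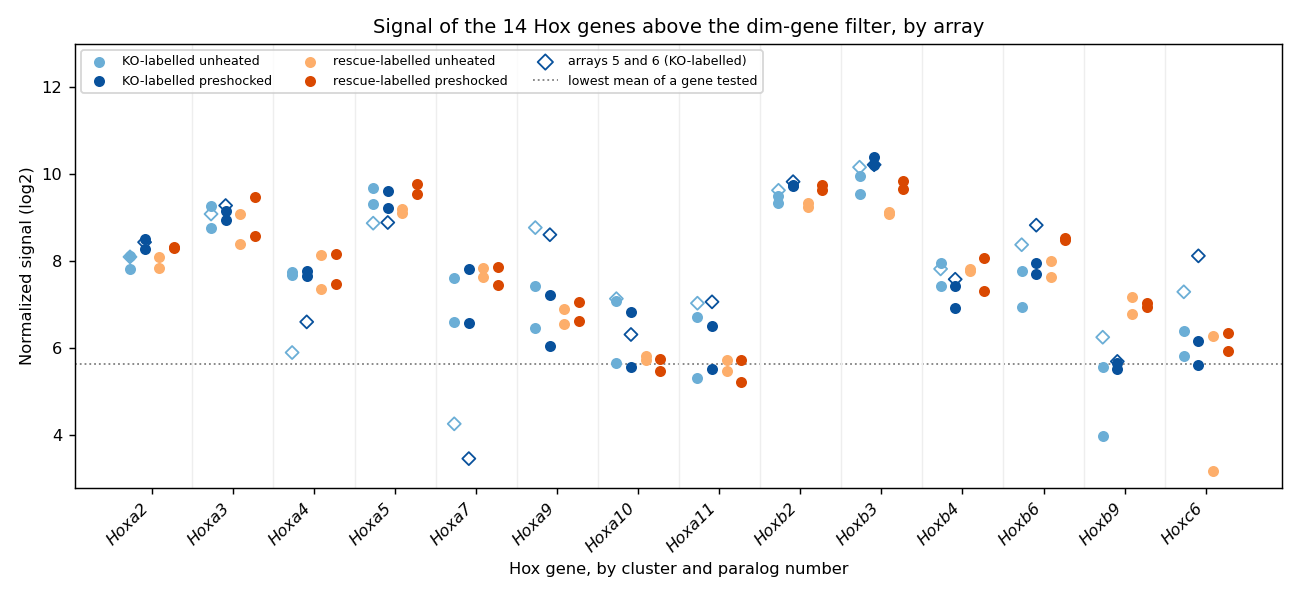
Normalized log2 signal (vertical axis) of the 14 tested Hox genes (horizontal axis) in each of 10 arrays, coloured by group, with arrays 5 and 6 as open diamonds and the filter limit of 5.65 as a dotted line. Heights of different genes are not comparable, since probe sets differ. Hoxb9 is the gene in which the lines do not overlap, and in Hoxa7 arrays 5 and 6 lie at 3.47 and 4.27, below all others.

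Between the lines, averaged over the heat states, 13 of 14 tested Hox genes did not pass the test. Of the 14 tested, 1 was called at an adjusted p under 0.05 (limma, Benjamini-Hochberg over 10915 genes), Hoxb3, which was lower in the rescue-labelled line. Over all genes tested 4.88% were called, 2.34% lower, so 1 of 14 is near the background. In log2 difference, rescue minus KO, 6 Hox genes were above 0 and 8 below, with a median of -0.10 against -0.02 over all genes tested. The median size of the difference, whatever its sign, was 0.60 for the Hox genes and 0.24 for all genes. Sizes at like signal were not compared. Hoxa7, Hoxa9, Hoxa10, Hoxa11, Hoxb9 and Hoxc6 lay at percentiles 43.7 to 51.5 of mean signal over all genes, not far above the filter limit. The differences of Hoxa7, Hoxa9 and Hoxc6 depended on which arrays were used, as given below. The Hox genes' median SE was 0.33, which corresponds to a 95% interval of 0.75 on either side. This fit takes the arrays as independent. With adjoining arrays treated as pairs, every tested Hox gene had a larger SE.

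**Figure D2:**
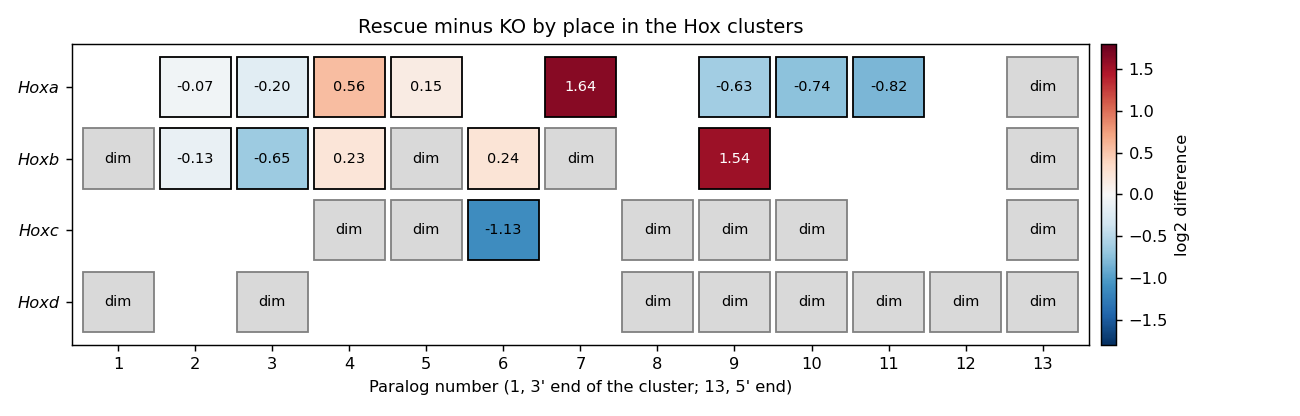
Place of each measured Hox gene by cluster (rows) and paralog number (columns), coloured by the log2 difference, rescue minus KO, over both heat states, with the value printed in each tested gene. Grey squares are dim genes and empty places have no single-symbol probe set used here. Values run from -1.13 in Hoxc6 to 1.64 in Hoxa7, and values of both signs stand in clusters A and B.

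Hoxb3, an anterior gene of cluster B that acts in the hindbrain, stood at 10.17, 9.96 and 9.55 log2 in unheated KO-labelled arrays 6, 12 and 14 and at 10.22, 10.41 and 10.21 in preshocked arrays 5, 11 and 13. In the rescue-labelled line it was at 9.10 and 9.14 in unheated arrays 32 and 44 and at 9.84 and 9.66 in preshocked arrays 31 and 43. Within each heat state every rescue-labelled array was below every KO-labelled one, while over both states the lines overlapped. The share of all genes with such an order within the heat states was not counted. The difference was -0.65 ± 0.14 (SE, limma, adjusted p = 0.0351), a 1.57-fold lower signal. The call ended when adjoining arrays were treated as pairs (replicate block, adjusted p = 0.300), with array-median centring (-0.12, adjusted p = 0.695, where the median of all genes moved from -0.02 to 0.46, so that the difference relative to that median was -0.58 against -0.63), and without any 1 of 9 arrays, all but array 14 (adjusted p from 0.0528 to 0.137). A second Hoxb3 probe set differed by 0.28 the other way, and the mean of both gave -0.19 (adjusted p = 0.505).

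Hoxb9, a posterior gene of cluster B that patterns the trunk, was in normalized signal higher in every rescue-labelled array than in any KO-labelled one. It stood at 6.26, 5.56 and 3.99 in unheated arrays 6, 12 and 14 and at 5.70, 5.66 and 5.52 in preshocked arrays 5, 11 and 13 of the KO-labelled line. In the rescue-labelled line it was at 7.17 and 6.80 in unheated arrays 32 and 44 and at 6.95 and 7.04 in preshocked arrays 31 and 43. Such separation held for 1 of 14 Hox genes, and over all genes tested for 11.1%, 5.69% with the rescue-labelled line above. In deposited intensity the lines overlapped. KO-labelled array 6 was at 124.5 and rescue-labelled arrays 31, 43 and 44 at 102.1, 117.2 and 101.7. The difference of 1.54 ± 0.38 (SE, 2.91-fold) missed the threshold (limma, adjusted p = 0.0573). It passed without array 14 (1.22, adjusted p = 0.0194), without array 6 (1.82, 0.0234), without arrays 5 and 6 together (1.87, 0.0287) and with array-median centring (1.68, 0.0294), and with the replicate block it was far from it (adjusted p = 0.382).

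Posterior tested members of cluster A, Hoxa9, Hoxa10 and Hoxa11, differed by -0.63 to -0.82 log2 on the probe sets used, and none was called. A second probe set of Hoxa9 differed by -0.26, and a second, dim one of Hoxa10 by -0.81. Hoxa11, which acts in limb and kidney, was at 5.49 and 5.74 in unheated rescue-labelled arrays 32 and 44 and at 5.73 and 5.24 in preshocked arrays 31 and 43, against 7.04, 5.33 and 6.73 in unheated KO-labelled arrays 6, 12 and 14 and 7.07, 6.51 and 5.53 in preshocked arrays 5, 11 and 13. The rescue-labelled values lay around the lower end of the KO-labelled range, and the difference was -0.82 ± 0.40 (SE, limma, adjusted p = 0.236). The SE was 0.75 in limma with the replicate block (adjusted p = 0.670). Hoxa10, a uterine and limb patterning gene, was at 5.74 and 5.84 in arrays 32 and 44 and 5.48 and 5.76 in arrays 31 and 43, against 7.14, 7.10 and 5.67 in arrays 6, 12 and 14 and 6.32, 6.85 and 5.58 in arrays 5, 11 and 13. Its difference was -0.74 ± 0.34 (SE, limma, adjusted p = 0.220). Arrays 13 and 14 were the KO-labelled pair whose Hoxa10 lay within the rescue-labelled range.

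Hoxa7 and Hoxa9 had line differences that moved most when arrays 5 and 6 were left out together. Hoxa7, a trunk patterning gene, was at 7.65 and 7.84 in unheated arrays 32 and 44 and 7.87 and 7.47 in preshocked arrays 31 and 43 of the rescue-labelled line. In KO-labelled arrays it was at 4.27, 6.61 and 7.62 unheated (6, 12 and 14) and 3.47, 6.58 and 7.83 preshocked (5, 11 and 13), so that each pair of adjoining numbers had its own level. The difference of 1.64 ± 0.90 (SE, limma, adjusted p = 0.288) was 0.58 without arrays 5 and 6. Hoxa9, a posterior gene with a role in blood stem cells and leukaemia, was at 8.78, 6.46 and 7.44 in arrays 6, 12 and 14 and 8.61, 7.22 and 6.05 in arrays 5, 11 and 13, against 6.56 and 6.91 in arrays 32 and 44 and 6.64 and 7.07 in arrays 31 and 43. Its difference of -0.63 ± 0.56 (SE, limma, adjusted p = 0.502) was 0.00222 without arrays 5 and 6.

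Hoxc6, a thoracic gene and the only tested member of cluster C, was at 7.30, 6.40 and 5.83 in arrays 6, 12 and 14 and 8.13, 6.17 and 5.61 in arrays 5, 11 and 13. In the rescue-labelled line it was at 3.18 and 6.28 in unheated arrays 32 and 44 and at 5.94 and 6.36 in preshocked arrays 31 and 43, so that array 32 alone was low. The difference was -1.13 ± 0.69 (SE, limma, adjusted p = 0.337), and it was -0.35 without array 32, -1.90 without array 44 and -0.57 without arrays 5 and 6. A second Hoxc6 probe set differed by -0.09, with array 32 at 5.67, and another, dim one by 1.46.

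The other 7 tested genes differed between the lines by -0.20 to 0.56 log2. The anterior genes Hoxa2 (-0.07 ± 0.11) and Hoxb2 (-0.13 ± 0.10), which pattern the hindbrain and branchial arches, had the narrowest errors (SE), with 95% intervals of -0.32 to 0.19 and -0.36 to 0.09. With the replicate block these intervals were wider, -0.42 to 0.29 and -0.47 to 0.20. Hoxa3, which acts in thymus and parathyroid development, differed by -0.20, Hoxa5, a regulator of lung and cervical patterning, by 0.15, Hoxb4, a factor of blood stem cells, by 0.23, Hoxb6 by 0.24 and Hoxa4 by 0.56 (adjusted p from 0.423 to 0.734 over the 7, limma). These signs are those of the probe sets used. The other probe sets of Hoxa3 differed by 0.35, 0.12 and -0.40. Second probe sets of Hoxa4, Hoxa5 and Hoxb4 differed by -0.29, -0.43 and -0.18. Within 1 heat state no Hox gene was called. In unheated cells the smallest adjusted p was 0.161 and in preshocked cells 0.290, and Hoxb3 and Hoxb9 had an unadjusted p under 0.05 in both (background of calls 0.421% and 0.339%). The replicate block gave 0 Hox calls between the lines, where it called 0.202% of all genes in unheated and 0.147% in preshocked cells and 0.229% over both.

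On the probe sets used, arrays 5 and 6 differed from the other 4 KO-labelled arrays with a sign that changed along cluster A. From the 3' end, the differences of their mean from the mean of arrays 11, 12, 13 and 14 were 0.09 for Hoxa2 and 0.14 for Hoxa3, then -1.46 for Hoxa4, -0.58 for Hoxa5 and -3.30 for Hoxa7. From Hoxa9 on they were above 0, at 1.90 for Hoxa9, 0.43 for Hoxa10, 1.03 for Hoxa11 and 0.71 for the dim Hoxa13. In cluster B they were 0.15 for Hoxb2, 0.16 for Hoxb3, 0.27 for Hoxb4, 1.01 for Hoxb6 and 0.80 for Hoxb9, and Hoxc6 differed by 1.71. In Hoxa4, Hoxa5, Hoxa7, Hoxa9, Hoxa11, Hoxb6, Hoxb9 and Hoxc6 both arrays lay on 1 side of the other 4, which is 8 of 14 tested Hox genes against 44% of all genes tested. These 2 arrays were picked out by their intensity and their principal component, so the differences are a description with no test.

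**Figure D3:**
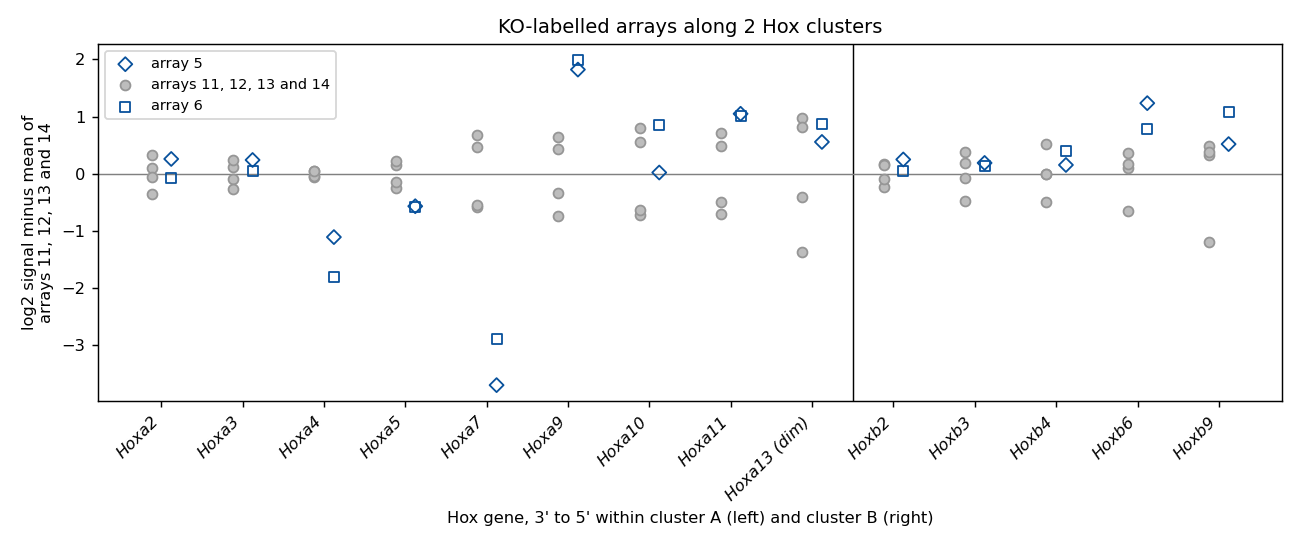
Log2 signal of the 6 KO-labelled arrays minus the mean of arrays 11, 12, 13 and 14 (vertical axis), for the members of clusters A and B from the 3' to the 5' end (horizontal axis). Arrays 5 and 6 are open symbols and the other 4 are grey circles. Both open symbols lie below the grey ones in Hoxa4, Hoxa5 and Hoxa7 and above them in Hoxa9 and Hoxa11.

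Other probe sets of the same genes did not all show that order. A second probe set of Hoxa5 went the other way, at 10.15 and 9.86 in arrays 5 and 6 and 8.22 to 8.76 in the other 8. The second one of Hoxa9 was at 6.93 and 7.09, inside the range of 6.39 to 7.28 of the others, and that of Hoxa4 at 5.12 and 6.09, where the others ran from 3.70 to 6.06. The next brightest one of Hoxa3 was at 8.61 and 7.80, where the other 8 arrays ran from 8.48 to 9.56. In cluster B the second one of Hoxb3 went the other way, at 7.27 and 7.69 against 7.72 to 8.68 in the other 8. The second one of Hoxc6, at 7.64 and 7.89 against 4.04 to 6.15, was high in the same arrays. Hoxa7 and Hoxa11 had 1 probe set each. The median intensity of these arrays was the highest, as given above, and its part in these values was not tested.

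After preshock the calls among Hox genes were small rises in 3 anterior members, and they came with pairing. Averaged over the lines and without pairing, 0 of 14 were called (limma), where 4.42% of all genes were, and 3 had an unadjusted p under 0.05, Hoxa2, Hoxb2 and Hoxb3. With the replicate block, which sets each preshocked array against the unheated array of the adjoining number, the same 3 genes were called higher and 0 lower, 3 of 14 against 17.4% of all genes called and 5.87% called higher. The median change was 0.18 log2 for the Hox genes and -0.04 for all genes tested, and 9 Hox genes were above 0 where 43.0% of all genes were.

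Hoxb3 changed by 0.06, 0.45 and 0.66 log2 in the KO-labelled pairs of arrays 5 and 6, 11 and 12, and 13 and 14, and by 0.75 and 0.52 in the rescue-labelled pairs of 31 and 32 and of 43 and 44. Its mean change was 0.51 ± 0.11 (SE, limma with the replicate block, adjusted p = 0.0396; 0.0830 without the block), 1.42-fold. Its second probe set was higher in 4 of 5 pairs, by 0.29 on average. Hoxb3 was also the gene called lower in the rescue-labelled line, and the rise after preshock was above 0 in both lines.

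Hoxa2 was at 8.10, 8.12 and 7.83 in unheated arrays 6, 12 and 14 and at 8.44, 8.51 and 8.29 in the preshocked arrays 5, 11 and 13. In the rescue-labelled line it was at 8.10 and 7.86 in unheated arrays 32 and 44 and 8.30 and 8.33 in preshocked arrays 31 and 43. In both lines all preshocked arrays were above all unheated ones in normalized signal. In deposited intensity the heat states overlapped in the KO-labelled line, with unheated array 6 at 330.5 and preshocked array 13 at 272.3. How many of all genes had such an order was not counted. The mean change was 0.37 ± 0.06 (SE, limma with the replicate block, adjusted p = 0.0263; 0.122 without the block), 1.29-fold.

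Hoxb2, its paralog in cluster B, was at 9.64, 9.50 and 9.35 in unheated arrays 6, 12 and 14 and 9.83, 9.75 and 9.74 in preshocked arrays 5, 11 and 13. Rescue-labelled values were 9.35 and 9.25 in unheated arrays 32 and 44 and 9.64 and 9.76 in preshocked arrays 31 and 43. Here too the heat states did not overlap within a line in normalized signal. In deposited intensity they overlapped in the KO-labelled line. Unheated array 6 was at 837.3 and preshocked arrays 11 and 13 at 836.9 and 787.2. The mean change was 0.34 ± 0.06 (SE, limma with the replicate block, adjusted p = 0.0309; 0.109 without the block), 1.27-fold.

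Hoxa2, Hoxb2 and Hoxb3 were each higher in 5 of 5 pairs, as were 12.6% of all genes tested, and Hoxa10 was lower in 5 of 5, as were 22.1%, by a mean of -0.28 (adjusted p = 0.206, limma with the replicate block). Such counts depend on the probe set. A second, dim probe set of Hoxa10 was higher in 3 of 5 pairs, by 0.46 on average. Another one of Hoxa3 was higher in 5 of 5, by 0.53. Without arrays 5 and 6 the block called Hoxb3 alone (0.61, adjusted p = 0.0314), and with array-median centring again Hoxb3 alone (0.51, adjusted p = 0.0307). With the block and no filter on dim genes 0 Hox genes were called, and the block called 0.143% of all 18193 genes. Leaving out any 1 of the other 4 pairs also gave 0 Hox calls.

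**Figure D4:**
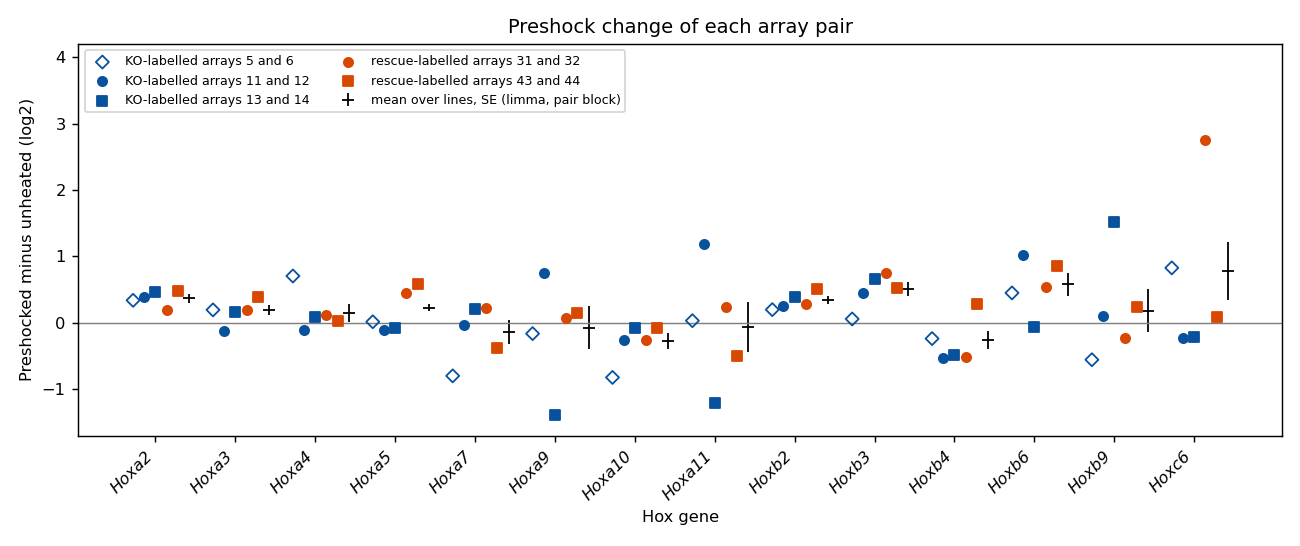
Log2 change after preshock (vertical axis) of each tested Hox gene (horizontal axis) in each of 5 pairs of arrays with adjoining numbers, KO-labelled in blue and rescue-labelled in orange, with the mean over the lines and its SE from limma with the pair as a block in black. All 5 pairs lie above 0 in Hoxa2, Hoxb2 and Hoxb3 and below 0 in Hoxa10.

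The remaining tested genes had mean changes of -0.28 to 0.77 log2 that were not called. Hoxa5 changed by 0.23 (adjusted p = 0.0515, limma with the replicate block), with 0.44 and 0.58 in the rescue-labelled pairs and -0.11 to 0.02 in the KO-labelled pairs. The difference between its responses, 0.56 log2, had an unadjusted p of 0.00378 and an adjusted p of 0.860 (limma with the replicate block). That fit called 0 of all genes for a difference of responses. The second probe set of Hoxa5 did not show this split and changed by 0.14 on average. On it, preshocked rescue-labelled arrays 31 and 43 were at 8.45 and 8.76, and unheated arrays 32 and 44 at 8.55 and 8.44. Preshocked KO-labelled arrays 5, 11 and 13 were at 10.15, 8.50 and 8.51, and unheated arrays 6, 12 and 14 at 9.86, 8.61 and 8.22. Hoxb6 changed by 0.58 (adjusted p = 0.0885) and was higher in 4 of 5 pairs. Hoxc6, at 0.77, rested on the pair of arrays 31 and 32, which changed by 2.76. Within 1 line no Hox gene was called by limma with or without the block (without it, 1 in the KO-labelled and 2 in the rescue-labelled line had an unadjusted p under 0.05), against 1.77% of all genes in the KO-labelled and 0.357% in the rescue-labelled line without it, and 9.15% and 1.5% with it. The response differed between the lines in 0 of 14 Hox genes, with 0 unadjusted p under 0.05 and 0 calls over all genes (limma without the block).

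Among the 19 dim genes Hoxb5 was higher after preshock in 5 of 5 pairs and Hoxb1 lower in 5 of 5, and neither was called. Hoxb5 lies between Hoxb4 and Hoxb6 and acts in lung and gut development. It was at 2.27, 2.65 and 2.47 in unheated arrays 6, 12 and 14 and 3.65, 4.98 and 6.03 in preshocked arrays 5, 11 and 13 of the KO-labelled line. In the rescue-labelled line it was at 5.31 and 4.73 in arrays 32 and 44 and 6.61 and 6.44 in arrays 31 and 43. In both lines the preshocked arrays were all above the unheated ones, an order whose share over all genes was not counted. Fitted with no filter on all 18193 genes, the change was 1.96 ± 0.43 (SE, limma, adjusted p = 0.103; 0.0996 with the replicate block) and the line difference 2.10 ± 0.43 (SE, limma, adjusted p = 0.0823), with 0.918% and 0.709% of all genes called. Deposited intensities of 4.45 to 79.9 stood behind these values. Hoxb1, which acts in the hindbrain, changed by -0.67, -0.49 and -0.27 in the KO-labelled pairs of arrays 5 and 6, 11 and 12, and 13 and 14, and by -0.20 and -0.40 in the rescue-labelled pairs, with a mean of -0.39 (limma, adjusted p = 0.487; 0.145 with the replicate block). Hoxb5 and Hoxb1 were chosen for mention after their values were seen.

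Counts of called regulators of Hox genes after preshock are read against 4.42% of all genes called without pairing and 17.4% with the replicate block. Of 22 tested Polycomb genes, which hold Hox genes silent, 1 rose and 1 fell without pairing, and with the replicate block 1 rose and 6 fell. Jarid2, a cofactor of the Polycomb methyltransferase complex, rose by 1.60 ± 0.15 (SE, limma, adjusted p = 0.00140), from 6.99 to 7.67 log2 in unheated to 8.86 to 9.48 in preshocked arrays. Phc2, a subunit of the other Polycomb complex, fell by 0.70 on the log2 scale (adjusted p = 0.0226). Of 11 Trithorax and H3K27 demethylase genes, whose products oppose Polycomb, Kdm6b rose by 0.73 ± 0.15 (SE, adjusted p = 0.0296), from 8.35 to 8.56 in unheated to 8.93 to 9.47 in preshocked arrays, and with the block 2 rose (Kdm6a and Kdm6b) and 2 fell (Wdr5 and Kmt2d). Of 5 tested cofactors, Pbx2 fell by 0.74 on the log2 scale (adjusted p = 0.0122), and Meis2 and Pbx3 fell as well with the block. These genes were named after their values were seen.

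**Figure D5:**
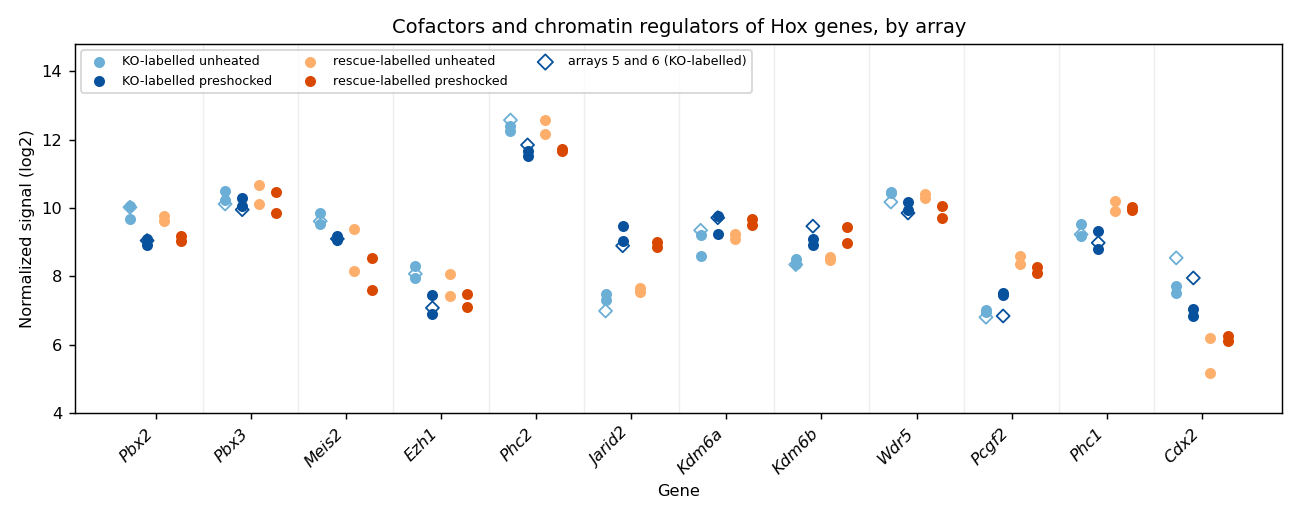
Normalized log2 signal (vertical axis) in each array of 12 cofactors, chromatin regulators and an upstream regulator of Hox genes (horizontal axis), coloured by group, with arrays 5 and 6 as open diamonds. Heights of different genes are not comparable. Jarid2 and Kdm6b are higher in every preshocked array, and Pcgf2 and Phc1 are higher and Cdx2 lower in every rescue-labelled array.

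Between the lines, Pcgf2 and Phc1, both Polycomb subunits, were higher in the rescue-labelled line, by 1.23 ± 0.15 (SE, limma, adjusted p = 0.00676) and 0.84 ± 0.14 (adjusted p = 0.0174), with 0 of the 22 Polycomb genes lower (4.88% of all genes were called). Pcgf2 was at 6.81 to 7.52 in KO-labelled and 8.11 to 8.59 in rescue-labelled arrays. Cdx2, a homeodomain activator of posterior Hox genes, was lower in the rescue-labelled line by -1.67 ± 0.31 (SE, adjusted p = 0.0255), at 5.16 to 6.27 against 6.83 to 8.54, and 1 of the 2 tested upstream regulators was called. None of 5 tested cofactors, 11 Trithorax and H3K27 demethylase genes, 6 retinoic acid genes and 14 genes beside the clusters was called between the lines. The smallest adjusted p in these lists were those of Meis2 (-0.97, 0.0701) and Pbx2 (-0.06, 0.776), Dpy30 (-0.32, 0.0769) and Kmt2b (-0.27, 0.129), Rara (0.84, 0.0935) and Rdh10 (0.53, 0.136), and Snx10 (0.42, 0.0835) and Skap1 (-0.54, 0.182). With the replicate block 0 genes of these lists were called between the lines.

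A list of other positional transcription factors, mostly homeobox and T-box genes, gave 2 calls of 25 tested between the lines, where 4.88% of all genes were called, and neither was a homeobox or T-box gene. Foxd1, a forkhead gene of kidney stroma, was higher in the rescue-labelled line by 0.78 ± 0.12 (SE, limma, adjusted p = 0.0137), and Tcf21, a mesenchymal factor of heart, lung and kidney and a basic helix-loop-helix protein, was lower by -1.15 ± 0.27 (adjusted p = 0.0480). Both calls ended with the replicate block (adjusted p = 0.116 and 0.379). Without pairing 0 of the 25 were called after preshock. With the block 5 rose, Tbx18, Shox2, Dlx2, Foxf1 and Isl1, and 2 fell, Prrx1 and Foxd1, where 17.4% of all genes were called. Rara, a retinoic acid receptor, was the 1 of 6 retinoic acid genes called with the block and fell by 0.64 on the log2 scale (adjusted p = 0.0312). Of 14 genes beside the clusters 1 was called, Smug1, which fell by 0.30 (adjusted p = 0.0325).

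Among cell type markers 2 were called between the lines, 1 of fibroblasts and 1 of neural cells, where 4.88% of all genes were. Of 10 tested fibroblast markers Thy1 was higher in the rescue-labelled line (0.81, limma, adjusted p = 0.00970), and of 5 neural markers Nes, an intermediate filament gene of progenitors, was lower (-0.91, adjusted p = 0.00948), with Tubb3 at -2.30 (adjusted p = 0.0561). With the replicate block neither Thy1 (adjusted p = 0.115) nor Nes (0.116) was called, and the epithelial, endothelial, macrophage and leukocyte, muscle, and pluripotent and germ lists had 0 calls between the lines by either fit. The summed intensity of the neural list was 1925 to 2305 in KO-labelled and 1165 to 1256 in rescue-labelled arrays, and that of the muscle list 16827 to 19781 and 12064 to 15053. The epithelial list summed to 252 to 1025 and 221 to 337, the endothelial list to 91.9 to 345 and 187 to 262, the macrophage and leukocyte list to 769 to 1356 and 861 to 1091, and the pluripotent and germ list to 1752 to 2447 and 2214 to 3778. Their part in the Hox values was not tested, and in whole cultures fewer cells of a type and less RNA per cell cannot be told apart.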

How the data were processed

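The 10 arrays, 1 per sample, hold intensity on a linear scale, deposited by the authors, and the sources used here do not name the summarisation software. The trimmed mean (2% at each end) was 500 in every array, rounded to a whole number. Values below 1 were set to 1, log2 values were quantile normalized, and for each of 18193 genes the single-symbol probe set with the highest mean was kept. Symbols came from GEO's platform annotation, coordinates from RefSeq (GRCm38.p6). Detection over background is not in the table, so precision is limited by how many arrays there are.

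A limma model (version 3.58.1, R 4.3.3, statmod 1.5.0) with a mean per group was fitted to all 10915 genes tested. Adjustment was by Benjamini-Hochberg, with a threshold of 0.05. Simulated data with known changes were used to test the code. For the fit without pairing they held no pair effects, so they say nothing about its p-values where arrays are paired. Adjoining array numbers were taken as pairs: deviations from group means correlated at 0.72, 0.38, 0.55, 0.37 and 0.37 within the 5 pairs, and each array's best partner was its own pair. The 2 rescue-labelled pairs mirror each other by construction. The block was a term in preshock comparisons and a random effect (correlation 0.716) between lines. Array values were given for Hox genes called and for the 6 with the next largest line difference, and from other lists at most 4 called between the lines, else the 2 smallest adjusted p. Members and lists were chosen with earlier results of these data known. Alternatives were another scaling, floor, filter, probe set rule, pairing and each array left out.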

Additional observations from a re-analysis of the deposited data

How the results depend on the processing

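Of 431 alternative values for the Hox genes named, 404 kept their direction and their side of the threshold, 16 lost a call, all for Hoxb3 between the lines, 9 gained one and 2 reversed. Apart from Hoxb3 between the lines, none of the 20 named results was called in the main fit. Keeping the side therefore mostly meant staying not called. Hoxb3 between the lines kept its call in 4 of 20 alternatives. Averaged over the lines, Hoxa2, Hoxb2 and Hoxb3 gained a preshock call in 1, 1 and 3 of 24. Hoxc6 between the lines became 0.080 with the mean of its probe sets and Hoxa9 became 0.0022 without arrays 5 and 6, neither called. The cause was not tested.

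The number of Hox genes called between the lines, averaged over the heat states, was 1. It became 0 with no filter on dim genes (33 Hox genes fitted), the mean of probe sets, the replicate block, pair means, and the block with array-median centring or with no filter, and 2 (Hoxb3 and Hoxb9) without arrays 5 and 6. Leaving out 1 array gave 0 to 2 and no call of Hoxb3 except without array 14, where Hoxb9 was called too. Array-median centring gave 1, but Hoxb9 in place of Hoxb3, and raised the share of higher calls over all genes from 52.2% of 533 to 85.3% of 735. Over all genes the block called 25 and pair means 5.

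After preshock the number went from 0 to 3 with the replicate block (Hoxa2, Hoxb2 and Hoxb3) and to 1 (Hoxb3) with the block and array-median centring or without arrays 5 and 6. The block with array-median centring, with no filter and without each pair were chosen after seeing the data. Counts in the other comparisons were 0 throughout. Signal near background limits the 19 dim genes, some of which vary by over 2 log2 units within a group.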
